A study of Mus musculus with 11 samples.

Results

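The genes described are 58 genes of the lysosome, of the proton pump that acidifies it and of autophagy, measured in mouse ventricles. They are the genes on the slide whose symbol begins with Atp6v or Atp6ap (the proton pump), Lamp and a digit, Atg and a digit, Gabarap, Map1lc3 or Vps and a digit, or reads Cts and a single letter (the cathepsins). They were read by 100 spots, all 58 were measured on 9 or more of the 11 arrays, as the test required, and they are 58 of 8106 named genes and 12097 features tested. By role they comprise 5 genes of the V1 part and 6 of the V0 part of the pump, 1 accessory subunit, 2 membrane proteins, 7 cathepsins, 10 autophagy genes with Atg names, 3 ubiquitin-like tags, 6 genes of the ESCRT machinery, 5 of the retromer and its relatives, 8 of the tethering complexes and 5 others with Vps names. The symbol Vps72 matches the rule by its name alone, since it codes for a subunit of a chromatin remodelling complex.

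The tissue was both ventricles with the septum of 12 male C57/BL6 mice aged about 60 weeks, from the TG1306/1R line, which overexpresses angiotensinogen in the heart. WT mice were littermates that carry no copy of the transgene (-/-). Hyp mice were heterozygous carriers (+/-) with concentric hypertrophy, and Dil mice were heterozygous carriers (+/-) with dilated hearts. Each group had 4 mice by the labels. For the Hyp mouse numbered 3, the labels of its arrays give different heart weights relative to body weight. It was taken here as the same mouse on both. Per the labels, carrier hearts were placed in their group by chamber shape, heart weight relative to body weight and hypertrophic marker expression, so the Hyp and Dil groups differ by a selection and not by a genotype. Each of the 11 arrays set 2 mice with the same number (a set) against each other in the dyes Cy3 and Cy5. There were 4 arrays of WT with Hyp, 4 of Hyp with Dil and 3 of WT with Dil, and set 2 had no WT with Dil array among those analysed.

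Lysosomes are acidic compartments in which proteases, lipases and glycosidases break down material that arrives by endocytosis or autophagy. The vacuolar ATPase pumps the protons: its V1 part hydrolyses ATP in the cytosol and turns a rotor in the membrane-embedded V0 part. In macroautophagy, a membrane marked by LC3 and GABARAP proteins closes around cytoplasm and then fuses with a lysosome, with the Atg proteins building that membrane and the HOPS complex tethering it. In cardiomyocytes, which divide rarely, this route removes worn mitochondria and protein aggregates. Vps proteins sort membrane proteins on the way: the ESCRT machinery sends them into the lysosome, and the retromer returns them from endosomes.

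Many lysosomal genes are known to carry an element called CLEAR in their promoters, whose centre is an E-box, the binding motif of TFEB and related factors. RefSeq promoter windows (GRCm38.p6), which run from 250 bases before to 50 bases after an annotated start, matched 41 of the 58 members by symbol. The letters CACGTG, the E-box, were found in 15 of these 41 genes (36.6%), against 8.09% of the 27025 genes of the same table. The longer letters TCACGTGA, which contain the E-box, were found in 8 of the 41 (19.5%), against 1.12% of all genes. Both motifs are palindromes, so 1 search covers both strands. The 8 genes were Atp6v0d1, Atp6v0e, Atp6v1a, Ctsa, Ctsd, Vps16, Vps26a and Vps33a. Among the genes described below, 6 stretches show where the letters lie. The matches are in capitals, TCACGTGA in the first 4 and CACGTG alone in the others, 5′ to 3′ on the gene's own strand:
Ctsa: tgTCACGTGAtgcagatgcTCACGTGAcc
Ctsd: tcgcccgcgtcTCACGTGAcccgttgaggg
Atp6v1a: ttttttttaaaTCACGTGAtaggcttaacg
Atp6v0d1: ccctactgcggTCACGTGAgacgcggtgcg
Ctsl: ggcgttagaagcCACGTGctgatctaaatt
Lamp1: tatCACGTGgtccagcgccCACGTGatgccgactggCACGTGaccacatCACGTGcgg
On GRCm38.p6 they are Ctsa at chr2:164833758-164833786 (plus strand), Ctsd at chr7:142387908-142387937 (minus strand), Ctsl at chr13:64370739-64370768 (minus strand), Atp6v1a at chr16:44139373-44139402 (minus strand), Atp6v0d1 at chr8:105566050-105566079 (minus strand) and Lamp1 at chr8:13159097-13159154 (plus strand). Counted from the annotated start (0), the first matched base lay at -13 in Ctsa, -99 in Ctsd, -132 in Atp6v1a, -4 in Atp6v0d1, -236 in Ctsl and -61 in Lamp1. Lamp1 held 4 copies of CACGTG in the 58 bases shown, and Ctsa held 2 copies of TCACGTGA on either side of its start. No match was found in the window of Ctsz or Atg13. In dilated against WT hearts, the 15 members with an E-box had a median log2 difference of 0.08 and the 26 without one a median of 0.06. These shares are a description, and a match is not a measured binding site.

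The values behind everything that follows are dye ratios, deposited by the authors for each spot and array. They were taken as log2 ratios of Cy5 over Cy3. The file names neither the base nor the direction: natural logarithms would make every fold too small, and the direction is likely because Nppb (2.53 ± 0.32 in Dil against WT, SE) and Agt, the gene the line overexpresses (2.15 ± 0.40), come out higher in carriers. In the opposite direction every sign given here would turn. Differences are given as the estimate of 1 fit over all 11 arrays ± its standard error, with 4 mice per group, and adjusted p-values are limma's moderated test with Benjamini-Hochberg adjustment over all 12097 features. Spot brightness was not used here, so levels cannot be set against each other and the tissue could not be checked against marker levels. In bulk ventricle, fewer cells of a type and less RNA per cell cannot be told apart. The array of WT1 and Hyp1 had displaced rows that were realigned, and 9 of the 58 members have no value on it. The ratios of all spots were spread more widely where WT met Dil in sets 3 and 4 (scaled median absolute deviation 0.34 and 0.35) than in set 1 (0.17).

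Dilated hearts were set against WT hearts to ask how these genes stand in the dilated state. A single member of 58 passed the test, the cathepsin Ctsz, which was higher in Dil. This is 1.72% of the members, against 2.15% of all features, so the share of members called was not above the background. At an unadjusted p under 0.05 there were 14 members (24.1%, 12 higher and 2 lower in Dil) against 16.2% of all features. Without set 4 there were 6 (10.3%) against 10.1% of all features, and 9 (15.5%) with a mouse variance ratio of 1 (13.0% of all features) or with direct arrays only (14.1%). The median difference over the members was 0.05, against 0.0029 over all features, and 36 of the 58 lay above 0 (62.1%, against 51.1%). The cathepsins and the V1 part of the pump had the highest group medians of several genes, 0.34 and 0.23, while the medians of all other groups of 2 or more genes lay between -0.11 and 0.07.

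**Figure D1:**
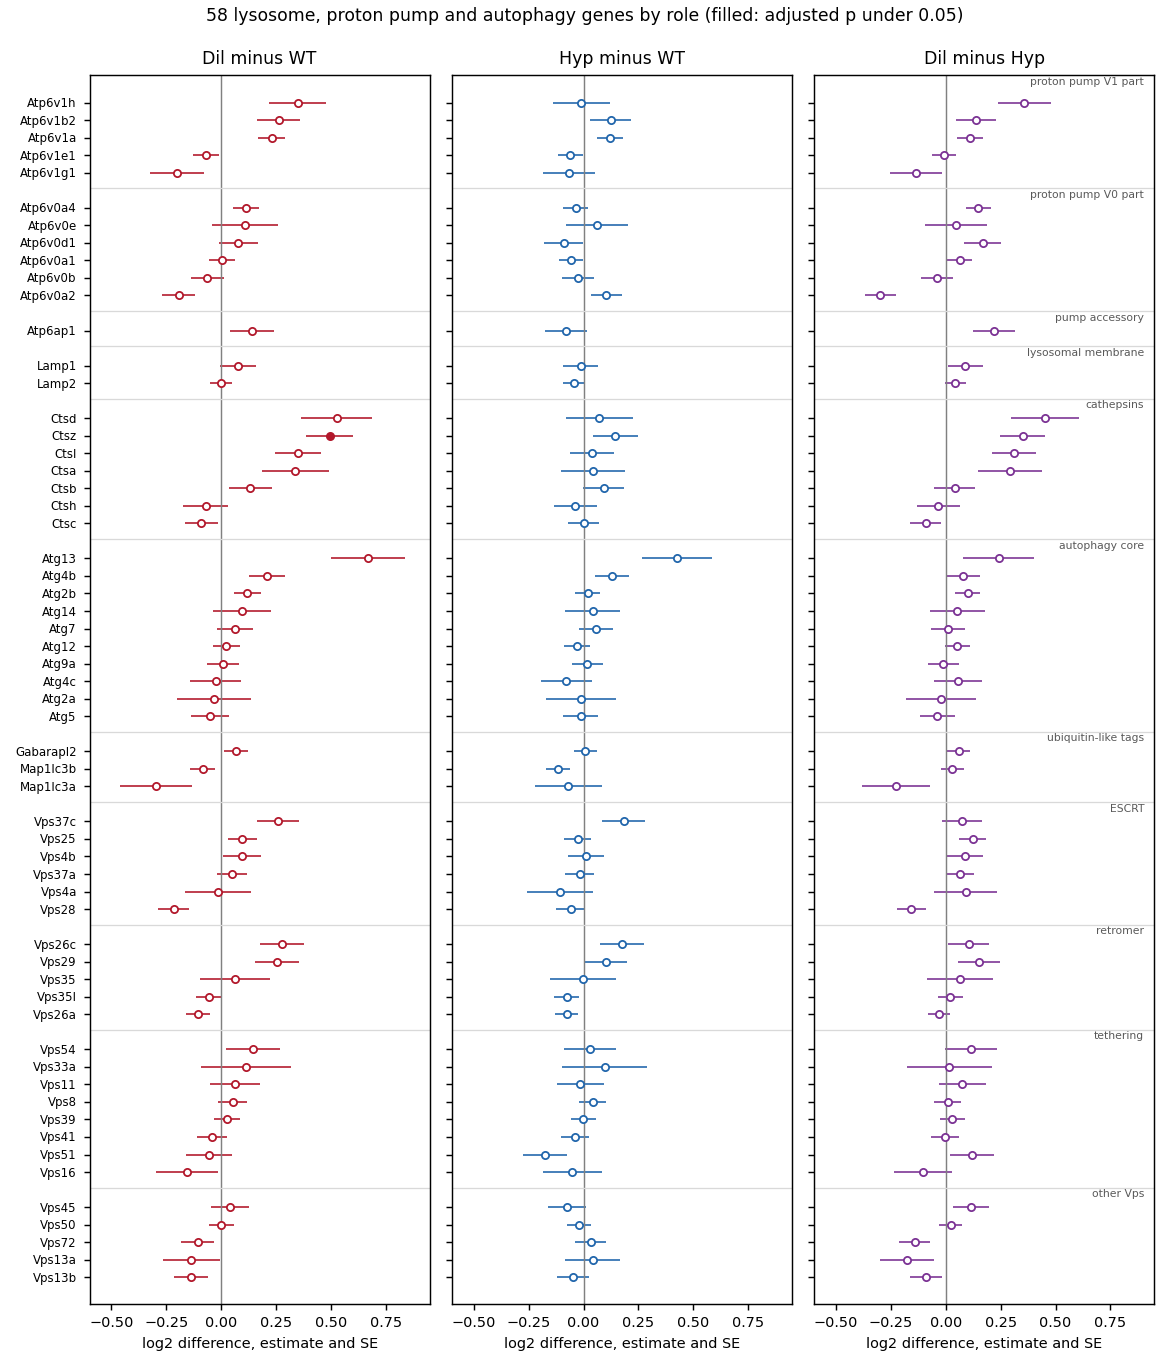
Log2 difference (horizontal axis, estimate and SE) of each of the 58 members in Dil minus WT, Hyp minus WT and Dil minus Hyp, with genes grouped by role on the vertical axis and filled points for an adjusted p under 0.05. Ctsz at 0.49 in Dil minus WT is the single filled point, and 4 of the 7 cathepsins lie at 0.34 to 0.53 in that comparison.

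Among the 7 cathepsins, Ctsz (gene ID 64138), a cysteine carboxypeptidase, had Dil over WT ratios of 0.02, 0.34 and 1.14 on the direct arrays of sets 1, 3 and 4. The ratio of set 1 was close to 0 and that of set 4 stood far above the others. The fit gave 0.49 ± 0.11 (1.41-fold, adjusted p = 0.0435, above 0 on 3 of 3 direct arrays), and the differences per set, with indirect arrays included, were 0.23, 0.17, 0.48 and 0.93 in sets 1 to 4. The call was lost in 10 of 18 alternatives, among them leaving out set 1, 2, 3 or 4 (limma adjusted p = 0.0703, 0.0713, 0.308 and 0.262) and scaling every array to an equal spread (0.0503), and with either of its spots alone (0.0550 and 0.0553). The estimate lay between 0.31 and 0.66 in the 18 alternatives.

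Ctsd, the main aspartic protease of lysosomes, had ratios of 0.33, 0.31 and 1.17 on the same 3 arrays, all above 0 and again highest in set 4. Its fitted difference was 0.53 ± 0.16 (adjusted p = 0.130). Its 5 spots, fitted one by one, gave 0.45 to 0.80. Ctsl, a cysteine endopeptidase, had ratios of 0.26, 0.39 and 0.22, which lay close together, and a fitted difference of 0.35 ± 0.10 (adjusted p = 0.117). Ctsa, a carboxypeptidase that also protects beta-galactosidase and neuraminidase in the lysosome, ran from -0.21 in set 1 to 1.04 in set 4, with a fitted difference of 0.34 ± 0.15 (adjusted p = 0.307). The remaining 3 cathepsins lay nearer to 0: Ctsb, a cysteine protease, at 0.13 ± 0.10, Ctsh, an aminopeptidase, at -0.07 ± 0.10 and Ctsc, a dipeptidyl peptidase that activates serine proteases of immune cells, at -0.09 ± 0.08. Without set 4, Ctsb stood at -0.03. So 1 of the 7 passed the test (14.3%, against 2.15% of all features). An unadjusted p under 0.05 was seen for 4 (57.1%, against 16.2%), and 5 lay above 0 (71.4%, against 51.1%). Shares of so few genes are a description.

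**Figure D2:**
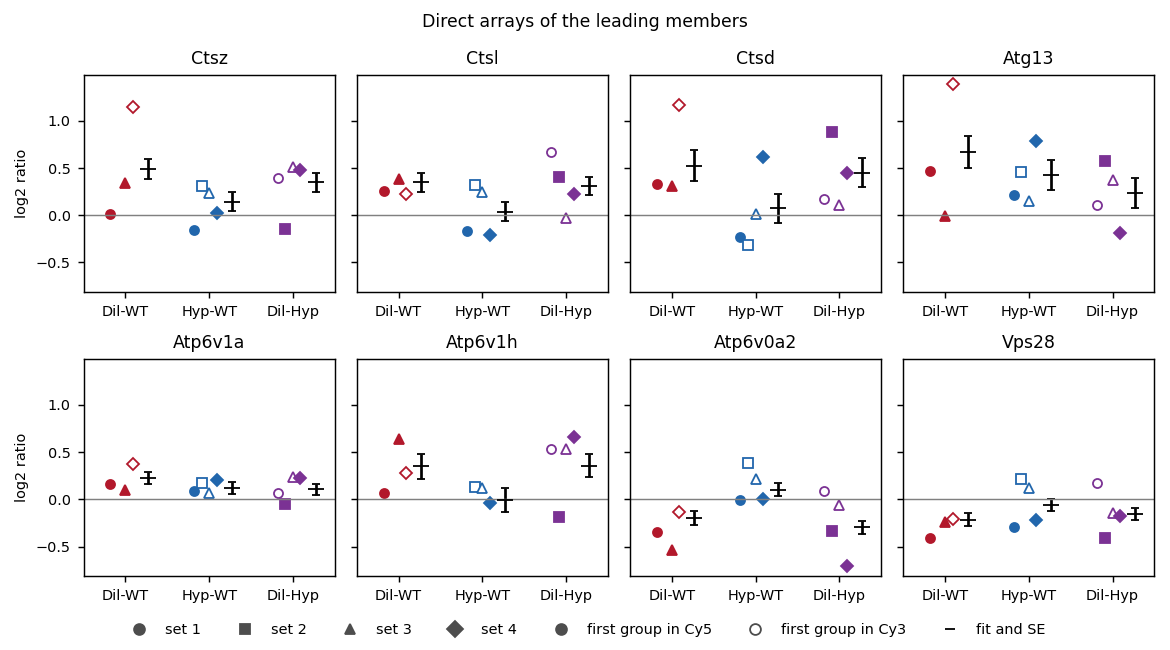
Log2 ratio (vertical axis) of 8 members on every direct array of each comparison (horizontal axis), with a symbol for each set, filled where the first group was in Cy5 and open where it was in Cy3; bars give the fitted difference and its SE. For Ctsz, Ctsd and Atg13 the Dil over WT ratio of set 4 (1.14, 1.17 and 1.39) stands above those of sets 1 and 3, and it is the only one with Dil in Cy3.

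On the 3 direct arrays, Dil was in Cy5 in sets 1 and 3 and in Cy3 in set 4. The mice of set 4 and that dye orientation therefore cannot be told apart on these arrays alone, and the dye term of the fit was estimated from all 11.

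In the V1 part of the pump, 3 of 5 members had an unadjusted p under 0.05 (60%, against 16.2% of all features). All 3 were higher in Dil, and none of the 5 passed the adjusted test. A share of so few genes is a description. Atp6v1a, the subunit that hydrolyses ATP, had ratios of 0.16, 0.10 and 0.37 in sets 1, 3 and 4. All were above 0, with set 4 highest, and the fitted difference was 0.23 ± 0.06 (adjusted p = 0.0884). Its 4 spots gave 0.16 to 0.32. Atp6v1b2, the partner subunit of the same ring, had ratios of -0.09, 0.20 and 0.72, a wider range that crossed 0, and a difference of 0.26 ± 0.10 (adjusted p = 0.211). Atp6v1h, a regulatory subunit, had ratios of 0.07, 0.64 and 0.28 and a difference of 0.35 ± 0.13 (adjusted p = 0.211). Its differences in sets 1 to 4 with indirect arrays were 0.11, -0.05, 0.64 and 0.39. The stalk subunits lay below 0, Atp6v1g1 at -0.20 ± 0.12 and Atp6v1e1 at -0.07 ± 0.06.

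In the V0 part, Atp6v0a2, a form of the large subunit that carries the proton path, had ratios of -0.35, -0.54 and -0.14. Its fitted difference was -0.19 ± 0.08 (adjusted p = 0.226). With indirect arrays included, its differences in sets 1 to 4 were -0.06, 0.05, -0.31 and -0.33, so set 2 lay above 0. Atp6v0a4, another form of that subunit that is best known from kidney, stood at 0.11 ± 0.06 and Atp6v0d1, which links rotor and stalk, at 0.08 ± 0.09. The other 3, Atp6v0a1, Atp6v0b and Atp6v0e, lay between -0.06 and 0.11. Atp6ap1, an accessory subunit, had ratios of 0.15, 0.37 and 0.44 and a difference of 0.14 ± 0.10 (adjusted p = 0.549). Its differences in sets 1 to 4 with indirect arrays were 0.04, -0.22, 0.25 and 0.31. Over the 11 subunits of both parts the median was 0.08, with 7 above 0.

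The abundant glycoproteins of the lysosomal membrane showed differences near 0. Lamp1 had ratios of 0.14, 0.37 and 0.07 and a fitted difference of 0.08 ± 0.08, with a 95% interval from -0.11 to 0.26. Lamp2, whose loss causes a cardiomyopathy with autophagic vacuoles in humans, had ratios of -0.03, 0.02 and 0.04 and a fitted difference of -0.00154 ± 0.05, with an interval from -0.11 to 0.11.

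Among the 10 autophagy genes with Atg names, Atg13, a scaffold of the kinase complex that starts autophagy, had the largest difference. Its Dil over WT ratios were 0.47, -0.01 and 1.39 in sets 1, 3 and 4, with set 3 at 0 and set 4 highest on these arrays. With indirect arrays included, the differences of sets 1 to 4 were 0.52, 1.04, 0.17 and 1.13, so sets 2 and 4 were high and set 3 lowest. The fit gave 0.67 ± 0.17 (1.59-fold, adjusted p = 0.0711). Its 2 spots differed in size and spread: fitted alone, a choice made after seeing the data, the first gave 0.52 ± 0.10 (adjusted p = 0.0281) and the second 0.82 ± 0.26 (adjusted p = 0.142). Atg4b, the protease that trims LC3 before it is attached to the membrane, had ratios of 0.21, 0.03 and 0.51 and a difference of 0.21 ± 0.08 (adjusted p = 0.236). The conjugation genes lay closer to 0: Atg7, which activates the tags, at 0.06 ± 0.08, and Atg5 and Atg12, which together form the ligase that attaches them, at -0.05 ± 0.09 and 0.02 ± 0.06. The remaining 5, Atg2a, Atg2b, Atg4c, Atg9a and Atg14, lay between -0.03 and 0.12, and 0 of the 10 passed the test.

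None of the 3 tags passed the test. Map1lc3a, a form of LC3, had ratios of -0.12, -0.55 and 0.20 and a difference of -0.30 ± 0.16 (adjusted p = 0.411). Map1lc3b, the form most used as an autophagosome marker, had ratios of -0.17, -0.13 and 0.05 and a difference of -0.09 ± 0.06, with a 95% interval from -0.21 to 0.04. Gabarapl2 stood at 0.07 ± 0.06, with an interval from -0.05 to 0.19. For both, 1 spot went the other way when fitted alone (0.03 for Map1lc3b and -0.07 for Gabarapl2).

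**Figure D3:**
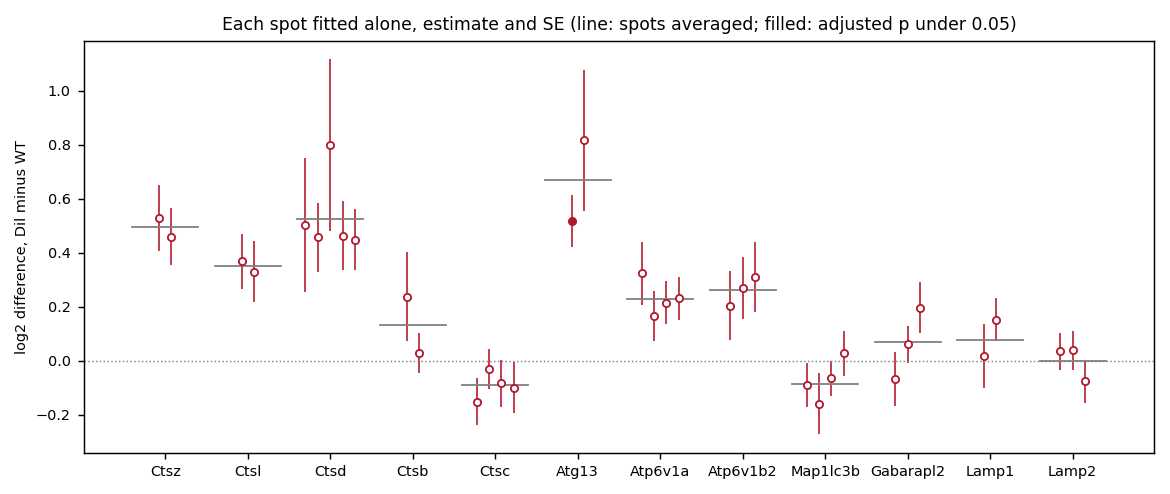
Dil minus WT log2 difference (vertical axis, estimate and SE) of each spot fitted alone for 12 members with several spots (horizontal axis), with a line at the value of the averaged spots and a filled point for an adjusted p under 0.05. The 5 spots of Ctsd and the 4 of Atp6v1a all lie above 0, and the first spot of Atg13 at 0.52 is the single filled point.

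Of the 25 members with several spots, 16 had the same sign in all spots in Dil against WT, and the median distance between the highest and lowest spot of a gene was 0.16.

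Of the 6 ESCRT genes, Vps28, a core subunit of ESCRT-I, had ratios of -0.41, -0.24 and -0.21, which were all below 0, and a fitted difference of -0.22 ± 0.07 (adjusted p = 0.144). Vps37c, another ESCRT-I subunit, had ratios of 0.45, -0.11 and 0.48 and a difference of 0.26 ± 0.10 (adjusted p = 0.220), so these partners lay on opposite sides of 0. Vps4b, an ATPase that takes the complex apart, stood at 0.10 ± 0.09. The other 3, Vps25, Vps37a and Vps4a, lay between -0.02 and 0.10.

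Among the 5 genes of the retromer and the related retriever, Vps26c had ratios of 0.16, 0.11 and 0.68 and a difference of 0.28 ± 0.10 (adjusted p = 0.200). Vps29, which both complexes share, stood at 0.25 ± 0.10 (adjusted p = 0.238). Vps35, the scaffold of the retromer, stood at 0.06 ± 0.16, while its ratios on the direct arrays were -0.03, -0.42 and -0.01, all below 0, and a fit of the direct arrays alone gave -0.115. Vps26a stood at -0.11 ± 0.05 and Vps35l at -0.06 ± 0.06. The 8 genes of the HOPS, CORVET and GARP tethers lay between -0.15 and 0.14, with adjusted p from 0.630 to 0.869. The 5 other Vps genes lay between -0.14 and 0.04, with Vps72 at -0.11 ± 0.07.

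Hypertrophic hearts were set against WT hearts to ask the same of carriers without dilatation. None of the 58 members passed the test, as was the case for all features (0%). Even Agt, the gene the line overexpresses, did not pass, at 2.09 ± 0.40 in Hyp against WT. The lack of calls in this comparison therefore does not show that the members were unchanged. At an unadjusted p under 0.05 there was 1 member (1.72%), against 4.41% of all features. With arrays scaled to an equal spread there were 5 (8.62%, against 8.43%), and without set 1 there were 0. The 1 member was Atg13, with Hyp over WT ratios of 0.22, 0.46, 0.15 and 0.79 in sets 1 to 4. All 4 arrays were above 0, the difference of set 3 with indirect arrays included was -0.02, and the fit gave 0.43 ± 0.16 (adjusted p = 0.999). The median over the members was -0.01, against 0.00075 over all features, and 26 of 58 lay above 0 (44.8%, against 50.45%). The cathepsins had a median of 0.04, with 6 of 7 above 0, and the V1 part one of -0.0093. Ctsz stood at 0.14 ± 0.10, with ratios of -0.15, 0.31, 0.23 and 0.02 on either side of 0. Atp6v1a stood at 0.12 ± 0.06, with ratios of 0.09, 0.17, 0.07 and 0.21 that were all above 0. Map1lc3b stood at -0.12 ± 0.05, with ratios of -0.40 and -0.27 on the arrays with Hyp in Cy5 (sets 1 and 4) and 0.06 and 0.02 on those with Hyp in Cy3 (sets 2 and 3). With indirect arrays included, the differences of sets 1 to 4 were all below 0 (-0.20, -0.05, -0.06 and -0.13). Vps51, a subunit of the GARP tether, stood at -0.18 ± 0.10, with ratios of -0.02, -0.29, -0.08 and -0.02. Vps37c (0.18 ± 0.10), Vps26c (0.17 ± 0.10), Atg4b (0.13 ± 0.08), Atp6v0a2 (0.10 ± 0.07) and Vps26a (-0.08 ± 0.05) completed the 10 smallest p-values, each with an adjusted p of 0.999.

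Dilated hearts were set against hypertrophic hearts, which is the test of the difference between the carrier groups. Again 0 of 58 members passed, against 0.165% of all features. At an unadjusted p under 0.05 there were 8 members (13.8%, 6 higher and 2 lower in Dil) against 9.64% of all features. Without set 4 there were 5 (8.62%, against 6.49% of all features), and with direct arrays only 2 (3.45%, against 4.21%). Without set 3 there were 6 (10.3%, against 4.40%). The median over the members was 0.05, against -0.0037 over all features, and 41 of 58 lay above 0 (70.7%, against 48.4%). The comparison shares its Dil mice with Dil against WT, so the values below are not separate evidence for the ones above.

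Atp6v0a2 had the smallest p in this comparison. Its Dil over Hyp ratios were 0.09, -0.34, -0.05 and -0.71 in sets 1 to 4, and the lower ones, of sets 2 and 4, were the arrays with Dil in Cy5. With indirect arrays included, the differences per set were -0.19, -0.13, -0.29 and -0.52, all below 0, and the fit with its dye term gave -0.30 ± 0.07 (adjusted p = 0.159). Among the cathepsins, Ctsz had ratios of 0.39, -0.15, 0.51 and 0.48, with set 2 below 0, and a difference of 0.35 ± 0.10 (adjusted p = 0.257). Ctsl had ratios of 0.67, 0.41, -0.02 and 0.23 and a difference of 0.31 ± 0.10 (adjusted p = 0.291). Ctsd was above 0 on all 4 arrays, at 0.17, 0.88, 0.11 and 0.45, with a difference of 0.45 ± 0.15 (adjusted p = 0.326), and Ctsa stood at 0.29 ± 0.15. The median of the 7 cathepsins was 0.29, with 5 above 0.

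In the pump, Atp6v1h had ratios of 0.53, -0.18, 0.54 and 0.66, with set 2 apart from the others, and a difference of 0.36 ± 0.12 (adjusted p = 0.341). Atp6v0a4 was above 0 on all 4 arrays (0.08, 0.04, 0.15 and 0.38) at 0.15 ± 0.06, and Atp6ap1 stood at 0.22 ± 0.10. Vps28 was at -0.16 ± 0.07 and Vps72 at -0.14 ± 0.07. The V1 part had a median of 0.11 and the 10 Atg genes one of 0.05, with Atg13 at 0.24 ± 0.16.

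Other genes of the same pathways were taken from 4 lists with 164 names, of which 109 were measured. In Dil against WT, 3 of the 109 passed the test (2.75%, against 2.15% of all features), 2 higher and 1 lower, and 16 had an unadjusted p under 0.05 (14.7%, against 16.2%). Bnip3, a receptor on the outer mitochondrial membrane that binds LC3, rose in Dil: its ratios were 0.41, 0.72 and 0.55 in sets 1, 3 and 4, and the fit gave 0.68 ± 0.11 (adjusted p = 0.0144). Sqstm1, which codes for the cargo receptor p62 that is itself degraded by autophagy, also rose, with ratios of 0.44, 0.45 and 1.22 and a difference of 0.58 ± 0.11 (adjusted p = 0.0254). Npc1, which exports cholesterol from the lysosome, fell, with ratios of -0.20, -0.39 and -0.55 and a difference of -0.42 ± 0.08 (adjusted p = 0.0311). All 3 kept their sign on each direct array. Bnip3 and Sqstm1 were each read by 1 spot, and Npc1 by 3. All 3 calls were lost without set 3 (limma adjusted p from 0.250 to 0.292), without set 4 (0.134 to 0.222), with the set number as a replicate block (0.0965 to 0.124) and with direct arrays only (0.0813 to 0.230). With a mouse variance ratio of 1 those of Npc1 and Sqstm1 were lost (0.0512 and 0.0701). Without set 1 those of Npc1 and Sqstm1 were lost (0.0682 and 0.0825), without set 2 that of Npc1 (0.0567), and under an equal spread of all arrays those of Bnip3 and Npc1 (0.0583 and 0.0610).

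Of 31 lysosomal hydrolases and their helpers, 23 lay above 0 in Dil against WT (74.2%, median 0.07). Of 37 autophagy genes without Atg names 17 did (45.95%, median -0.0019), against 51.1% of all features. The lists of lysosomal membrane genes (16) and of late endosome genes (25) had medians of 0.0035 and 0.03. In Hyp against WT and in Dil against Hyp, 0 of the 109 passed, with 6 (5.50%) and 12 (11.01%) at an unadjusted p under 0.05, against 4.41% and 9.64% of all features. In Hyp against WT, Bnip3 stood at 0.22 ± 0.10, Sqstm1 at 0.12 ± 0.10 and Npc1 at -0.23 ± 0.08.

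Lysosomal proteases are abundant in macrophages, so markers of other cells were read on the same arrays. All 5 measured macrophage and leukocyte markers of 20 listed lay above 0 in Dil against WT, from 0.10 for Cd14 to 0.40 for Coro1a (median 0.30), and 0 passed the test. Of the 11 fibroblast markers 9 lay above 0, from -0.20 to 0.82 (median 0.22), and 0 passed. In Hyp against WT the medians were 0.17 and -0.0045, and in Dil against Hyp 0.09 and 0.245. The 5 cardiomyocyte markers had a median of -0.03 in Dil against WT, from -0.33 for Ryr2 to 0.46 for Actn2. Of these 5, 3 had an unadjusted p under 0.05 (60%, 1 higher and 2 lower), against 16.2% of all features. The 7 endothelial markers had a median of 0.02. The 3 smooth muscle markers ran from -0.73 to 0.06, the 4 adipocyte markers from -0.34 to 0.09, and the 1 erythrocyte marker stood at 0.35. None of these markers passed the test.

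The cathepsin median in Dil against WT was -0.10, 0.05, 0.25 and 0.52 in sets 1 to 4, and that of the V1 part was -0.04, 0.01, 0.17 and 0.39. The macrophage markers had medians of 0.07, -0.03, 0.21 and 0.75 in the same sets, and the fibroblast markers -0.10, -0.06, 0.54 and 0.45. The medians of both gene groups were thus higher in sets 3 and 4, where both marker lists were also higher. No other marker list was higher in both of these sets. The endothelial markers had 0.02, 0.12, -0.11 and 0.16 in sets 1 to 4, and the cardiomyocyte markers -0.05, -0.10, 0.12 and -0.25. The lysosomal hydrolases and their helpers had -0.04, 0.02, -0.03 and 0.28. The autophagy genes without Atg names had -0.02, 0.02, 0.03 and 0.03. In sets 3 and 4 the ratios of all spots were also wider. Single genes differed: Ctsz was highest in sets 3 and 4 (0.48 and 0.93), whereas Ctsl had 0.38, 0.72, 0.33 and 0.16 in sets 1 to 4. The part of macrophages, of fibroblasts or of the array spread in the cathepsin and pump values was not tested. The median over all 58 members rose in the same set order as the cathepsins, on a smaller scale (-0.02, -0.0091, 0.03 and 0.08). In sets 1 to 4, 26, 28, 36 and 34 of the 58 lay above 0. The Atg genes did not follow that order (0.08, 0.07, -0.06 and 0.15). In Dil against Hyp the cathepsin medians were 0.18, 0.06, 0.03 and 0.30 in sets 1 to 4. There the macrophage markers had 0.02, -0.26, -0.03 and 0.50, and the fibroblast markers -0.02, -0.20, 0.30 and 0.63.

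**Figure D4:**
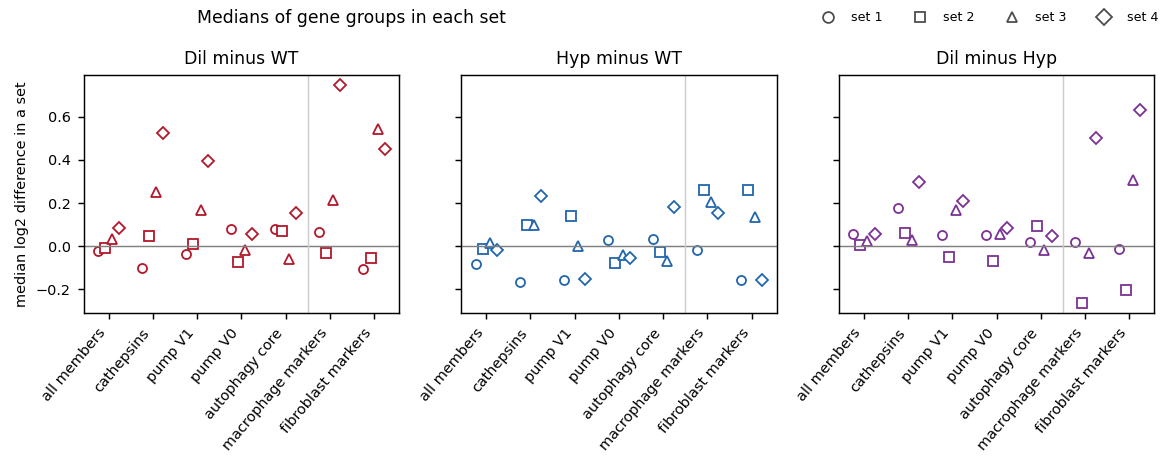
Median log2 difference (vertical axis) of all members, of 4 of their role groups and of the macrophage and fibroblast markers (horizontal axis) in each of the 4 sets, with a panel for each comparison. In Dil minus WT the cathepsins reach 0.25 and 0.52 in sets 3 and 4, where the macrophage markers reach 0.21 and 0.75, while sets 1 and 2 lie at 0.07 or lower in both.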

How the data were processed

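The authors deposited 1 table of log ratios of both dyes for 17664 spots on 11 two-colour cDNA arrays, taken here as log2 of Cy5 over Cy3; the sources used here do not give scanner, background correction or normalization, and ratios were used as deposited. The column of WT1 and Hyp1 had 40 of 46 groups of 12 spots displaced by 8 blocks; they were moved back, which left 3840 spots (21.7%) without a value there. Spots with 1 gene symbol (12563) were averaged by gene. Unlisted spots and the 412 spots with several symbols were kept singly, and 736 control spots were left out. Group differences were fitted by generalised least squares in R 4.3.3, with a dye term over all arrays, and limma 3.58.1 moderated the variances. Shared mice entered through a covariance with 1 variance ratio for all features (0.303). For genes that vary more between mice the standard errors may therefore be too small. The limit was an adjusted p under 0.05, Benjamini-Hochberg over 12097 features. The number of arrays limits the precision. The fit was tested on data simulated from its own model. These had the same variance ratio for every feature and equal noise on every array. They cannot show how the fit does where genes or arrays depart from that.

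Members and lists were chosen with earlier results of these data known. Genes named with values are the 10 smallest p-values of each comparison and a set of textbook genes; other members were named after their values were seen. The alternatives changed scaling, centring, dye term, variance ratio, block, spot summary, array minimum, moderation and the arrays used. Promoter windows are RefSeq's (GRCm38.p6), searched for letters only.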

Additional observations from a re-analysis of the deposited data

Results flagged for a closer look

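Of 30 groups of 4 sets tested, 1 held a value that stood apart from the other 3. For Atp6v1h, a regulatory subunit of the proton pump, the Dil minus Hyp difference of set 2 was -0.14, while the other 3 sets lay between 0.49 and 0.55. For 4 independent values, chance gives such a value in about 1 of 20 groups. The groups tested share mice and arrays, so that rate may not hold for them. Atp6v1h was read by 1 spot and has no value on the array of WT1 and Hyp1.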

How the results depend on the processing

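For Dil against WT, the count of members past the threshold was 1 and went to 0 in 10 of 18 alternatives: arrays scaled to the same spread, no dye term, a variance ratio of 1, the replicate block, the array of WT1 and Hyp1 left out, direct arrays only, and leaving out each set in turn (0 to 0). With the set number as a replicate block, Ctsz stood at 0.45 (limma adjusted p = 0.212) and 0 members and 6 features passed, and the calls of Bnip3, Sqstm1 and Npc1 were lost (0.0965, 0.124 and 0.0987); the labels do not say that a shared number marks a litter or a batch. Counts of features past the threshold in Dil against WT moved from 260 to 99 with scaled arrays, 108 with a variance ratio of 1, 159 without the array of WT1 and Hyp1, 7 with direct arrays only, and 121, 80, 0 and 12 without sets 1 to 4. In Dil against Hyp they moved from 20 to 43 without a dye term, 52 and 1 with a variance ratio of 0 and 1, 41 with the array of WT1 and Hyp1 as deposited and 7 without it, 0 with the block or direct arrays only, and 0, 15, 0 and 0 without sets 1 to 4. In Hyp against WT and in Dil against Hyp, 0 members passed in all 18. The median of the members ran from 0.03 to 0.06 in Dil against WT, from -0.02 to 0.02 in Hyp against WT and from 0.04 to 0.06 in Dil against Hyp. The sign also turned for values near 0: Atg12 without set 3 (-0.05), Atg7 without set 4 (-0.01), Vps35 without set 4 (-0.0018) and with direct arrays only (-0.115), and Lamp2 in 5 alternatives and 2 spots alone (0.0040 to 0.038). It turned for Vps4b without set 3 (-0.0084), Ctsb without set 4 (-0.029), the fourth spot of Map1lc3b alone (0.027) and the first of Gabarapl2 alone (-0.066); the cause was not tested. Leaving out 1 set at a time, Ctsb ran from -0.029 to 0.23 and Vps4b from -0.0084 to 0.14. The fits of single spots and of further moved spots of WT1 and Hyp1 were chosen after seeing the data.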
